A study of Homo sapiens with 18 samples.

Results

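The nuclear genes of the mitochondrial respiratory chain were followed across 18 established cancer cell lines. The members were all genes with a current symbol beginning NDUFA, NDUFB, NDUFS, NDUFV, UQCR, COX4I, COX5, COX6, COX7, COX8 or ATP5, together with SDHA, SDHB, SDHC, SDHD and CYC1, that had a probe set matching that gene alone. They numbered 90 of the 19774 genes measured, read from 172 probe sets. The choice used names and not values. Of these, 86 code for proteins: 32 subunits of complex I, 8 assembly factors of complex I whose symbols begin NDUFAF, 3 subunits of complex II, 8 of complex III, 17 of complex IV, with their tissue isoforms, and 18 of the ATP synthase, with its inhibitor. The other 4 are non-coding and came in by name, namely NDUFA6-DT, NDUFB2-AS1, NDUFV2-AS1 and the pseudogene ATP5MC2P1. Other symbols that meet the rule, such as SDHB and UQCRFS1, were not analysed here.

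All lines carry the label of colorectal cancer (CRC), and the labels give no other disease, subtype or genotype. HUTU80 is known as a line from the duodenum, which differs from that label, and the origin of the lines was not checked. Kept in DMEM/F-12 with 15 mM HEPES were 10 lines, CAR1, CL40, HT55, HUTU80, LS180, OUMS23, RKO, SW1463, SW48 and SW948. The other 8, COLO320HSR, HCT116, KM12, LS513, MDST8, NCIH716, RCM1 and SNUC1, were kept in RPMI-1640 with 25 mM HEPES, to which glucose and sodium pyruvate had been added. Fetal bovine serum, glutamine, penicillin and streptomycin were common to both media. Each line is a separate culture and was read on 1 array, so a difference between lines has no replicate error, and tests between media measure the spread between lines.

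The respiratory chain sits in the inner mitochondrial membrane. Complex I (NADH dehydrogenase) and complex II (succinate dehydrogenase) pass electrons to ubiquinone, complex III passes them to cytochrome c, and complex IV (cytochrome c oxidase) passes them to oxygen. Complexes I, III and IV pump protons as they do so, and the ATP synthase lets the protons back to make ATP. Most subunits are encoded in the nucleus and a few in mitochondrial DNA. In the healthy colon, epithelial cells use the chain to oxidise butyrate from the gut bacteria.

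The values are log2 intensities, and a probe set's level is not set against that of another. The array medians lay between 3.65 and 3.69. A background level of 3.93 was taken as the 95th percentile of 62 probe sets of 43 genes restricted to other tissues. Of 9 markers of colon epithelium, only 4 were above this level in RKO, MDST8 and COLO320HSR, and 5 in SW48, HUTU80 and CAR1. Equal counts hide unlike levels. In HUTU80 EPCAM and CDH1 were barely above it (4.09 and 4.08), against 11.78 and 10.53 in SW48 and 11.85 and 9.57 in CAR1. EPCAM was at its lowest in COLO320HSR (3.74) and CDH1 in MDST8 (3.16). Other markers of the list went the other way in COLO320HSR, where CDX2 had its highest value of all lines (11.44) and CDH17 stood at 6.23. Of 5 fibroblast markers COL1A1 was above background in all 18 lines, between 4.04 and 4.93. In HUTU80, 4 of the 5 were above it, with LUM at 11.30 and DCN at 11.27. In MDST8 3 were above it, with LUM at 7.05, and in NCIH716 2, with LUM at 10.57. Whether these differences in cell identity have a part in the results below was not tested.

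Transcripts of all 5 complexes were detected in every line. Of the 86 protein-coding members, 82 were above background in at least 1 line and 80 in all 18. All 32 complex I subunits, all 8 assembly factors, all 3 complex II subunits, all 8 complex III subunits and all 18 ATP synthase members were above background throughout. The members that were not belong to complex IV, and they are isoforms known from other tissues. COX6A2, the heart and muscle form of subunit 6A, ranged from 2.79 to 3.19. COX4I2, the form of subunit 4 known from lung, ranged from 3.40 to 3.89. COX7B2 ranged from 2.97 to 3.33 and COX8C from 2.59 to 3.20, both known from testis. These 4 were below background in all lines. COX6B2, the testis form of subunit 6B, reached 3.97 in SNUC1 and was below background elsewhere. COX7A1, the heart and muscle form of subunit 7A, was above background in HUTU80 alone. The widely expressed partners were bright everywhere, COX4I1 between 11.52 and 12.24, COX6A1 between 12.01 and 12.57, COX6B1 between 10.44 and 11.66, COX7A2 between 10.37 and 11.29, and COX8A between 11.56 and 12.39. Among the non-coding members, NDUFB2-AS1 was above background in 7 lines, reaching 4.30 in HT55, NDUFA6-DT in 2 and ATP5MC2P1 in 1, while NDUFV2-AS1 stayed below it.

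Members shared short sequence motifs around their starts more often than protein-coding genes at large. The RefSeq promoter table (GRCh38.p14) holds windows of 300 bases, from 250 before to 50 after a start, for 73 of the 86 protein-coding members. They were searched on both strands for the motif of NRF1 (nuclear respiratory factor 1, an activator of respiratory genes), GCGCANGCG, for the core of ETS factors such as GABPA, CCGGAAG, and for the YY1 motif AANATGGCG. The NRF1 motif was in the windows of 24 members (32.9%), against 12.5% of the 15843 protein-coding genes in the table. The ETS core was in 21 members (28.8%) against 16.5%, and the YY1 motif in 16 (21.9%) against 5.59%. Longer forms, with C after the NRF1 letters or GC after those of YY1, were in 17 members (23.3%) against 9.67% and in 9 (12.3%) against 2.6%. In all, 46 members (63%) held at least 1 of the 3 motifs, against 29.6% of genes. Complex I subunits accounted for 11 of the 16 members with the YY1 motif, among 30 in the table, while 1 of 14 complex IV and 1 of 14 ATP synthase members held it. Of the 14 complex IV members 5 held the ETS core and 2 the NRF1 motif, and of the 14 ATP synthase members 6 held each. The windows of 10 members had more than 1 start, any of which could count, and in no member did matches of different motifs overlap. A match describes these letters and shows no binding.

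The 250 bases before the start are given for 4 members that recur below, 1 each from the assembly factors, complex II, complex III and the ATP synthase, chosen after their values were seen. They read 5′ to 3′ on the gene's own strand, with motif letters in capitals. NDUFAF4 (chr6:96897892-96898141, minus strand) holds the ETS core. SDHD (chr11:112086623-112086872, plus strand) holds an NRF1 motif and an ETS core. UQCRC1 (chr3:48609647-48609896, minus strand) and ATP5F1C (chr10:7787927-7788176, plus strand) hold the NRF1 motif, UQCRC1 at 2 places. All 4 shown hold a motif, which is not so for all members. ATP5IF1 and COX4I1, which also recur below, hold none of the 3 motifs in the 250 bases before the start and are not shown.
NDUFAF4: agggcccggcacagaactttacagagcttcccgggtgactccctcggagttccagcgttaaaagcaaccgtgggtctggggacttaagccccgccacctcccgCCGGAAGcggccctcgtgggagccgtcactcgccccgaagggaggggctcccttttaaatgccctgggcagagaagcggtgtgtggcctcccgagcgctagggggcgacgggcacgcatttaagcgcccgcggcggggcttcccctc
SDHD: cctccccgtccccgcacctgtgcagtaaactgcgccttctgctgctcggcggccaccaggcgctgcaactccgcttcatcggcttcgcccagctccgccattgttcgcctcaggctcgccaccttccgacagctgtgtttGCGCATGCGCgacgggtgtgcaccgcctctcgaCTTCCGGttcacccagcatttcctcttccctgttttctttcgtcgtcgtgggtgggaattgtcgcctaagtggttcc
UQCRC1: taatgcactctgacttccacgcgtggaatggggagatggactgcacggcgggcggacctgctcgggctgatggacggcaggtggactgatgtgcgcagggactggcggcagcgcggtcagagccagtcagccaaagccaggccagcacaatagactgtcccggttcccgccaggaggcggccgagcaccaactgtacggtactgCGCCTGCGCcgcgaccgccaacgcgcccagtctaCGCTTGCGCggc
ATP5F1C: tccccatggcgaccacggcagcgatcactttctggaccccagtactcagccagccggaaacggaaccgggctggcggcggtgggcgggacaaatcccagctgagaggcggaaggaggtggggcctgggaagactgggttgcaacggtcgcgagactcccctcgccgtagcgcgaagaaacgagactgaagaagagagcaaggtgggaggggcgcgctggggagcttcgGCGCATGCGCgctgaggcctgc

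**Figure D1:**
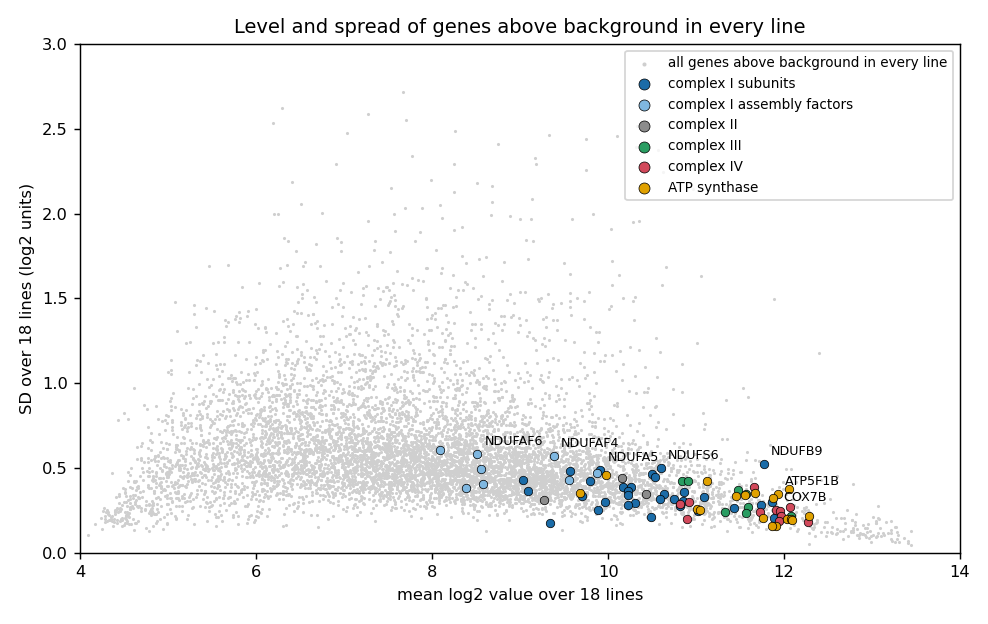
Mean log2 value (horizontal axis) and SD over 18 lines (vertical axis, log2 units) of the 8215 genes above background in every line (grey) and of the 80 members among them (coloured by complex); 2 grey genes lie above the axis end at 3. The members sit to the right, 60 of them at a mean of 10 or more, with SDs from 0.16 to 0.61.

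The members differed little between lines. The median SD over the lines was 0.33 for the 82 members above background, against 0.57 for the 15022 genes above background in at least 1 line and 0.51 for the 8215 above it in every line. Bright genes vary less on these arrays, and 60 members have a mean of 10 or more. Against the 1198 genes of that brightness the gap was smaller, with a median SD of 0.30 for the members and 0.35 for the genes, and 42 of the 60 members lay under the latter. The highest and lowest lines lay at least 2 log2 units (4-fold) apart in 7 of the 82 members, against 54.4% of genes above background in at least 1 line, and in 6 of the 80, against 45.3%. Among bright genes this held for 2 of the 60 members, against 15.4%. The 7 were COX7A1, NDUFAF4, NDUFAF5, NDUFAF6, NDUFA5, NDUFB9 and NDUFS6. Because each rests on its extreme lines, none was left when the second highest and second lowest lines were compared, against 31.5% of genes. With the probe set of largest SD for each gene the count was 19 of 81 members, against 62.1% of genes.

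**Figure D2:**
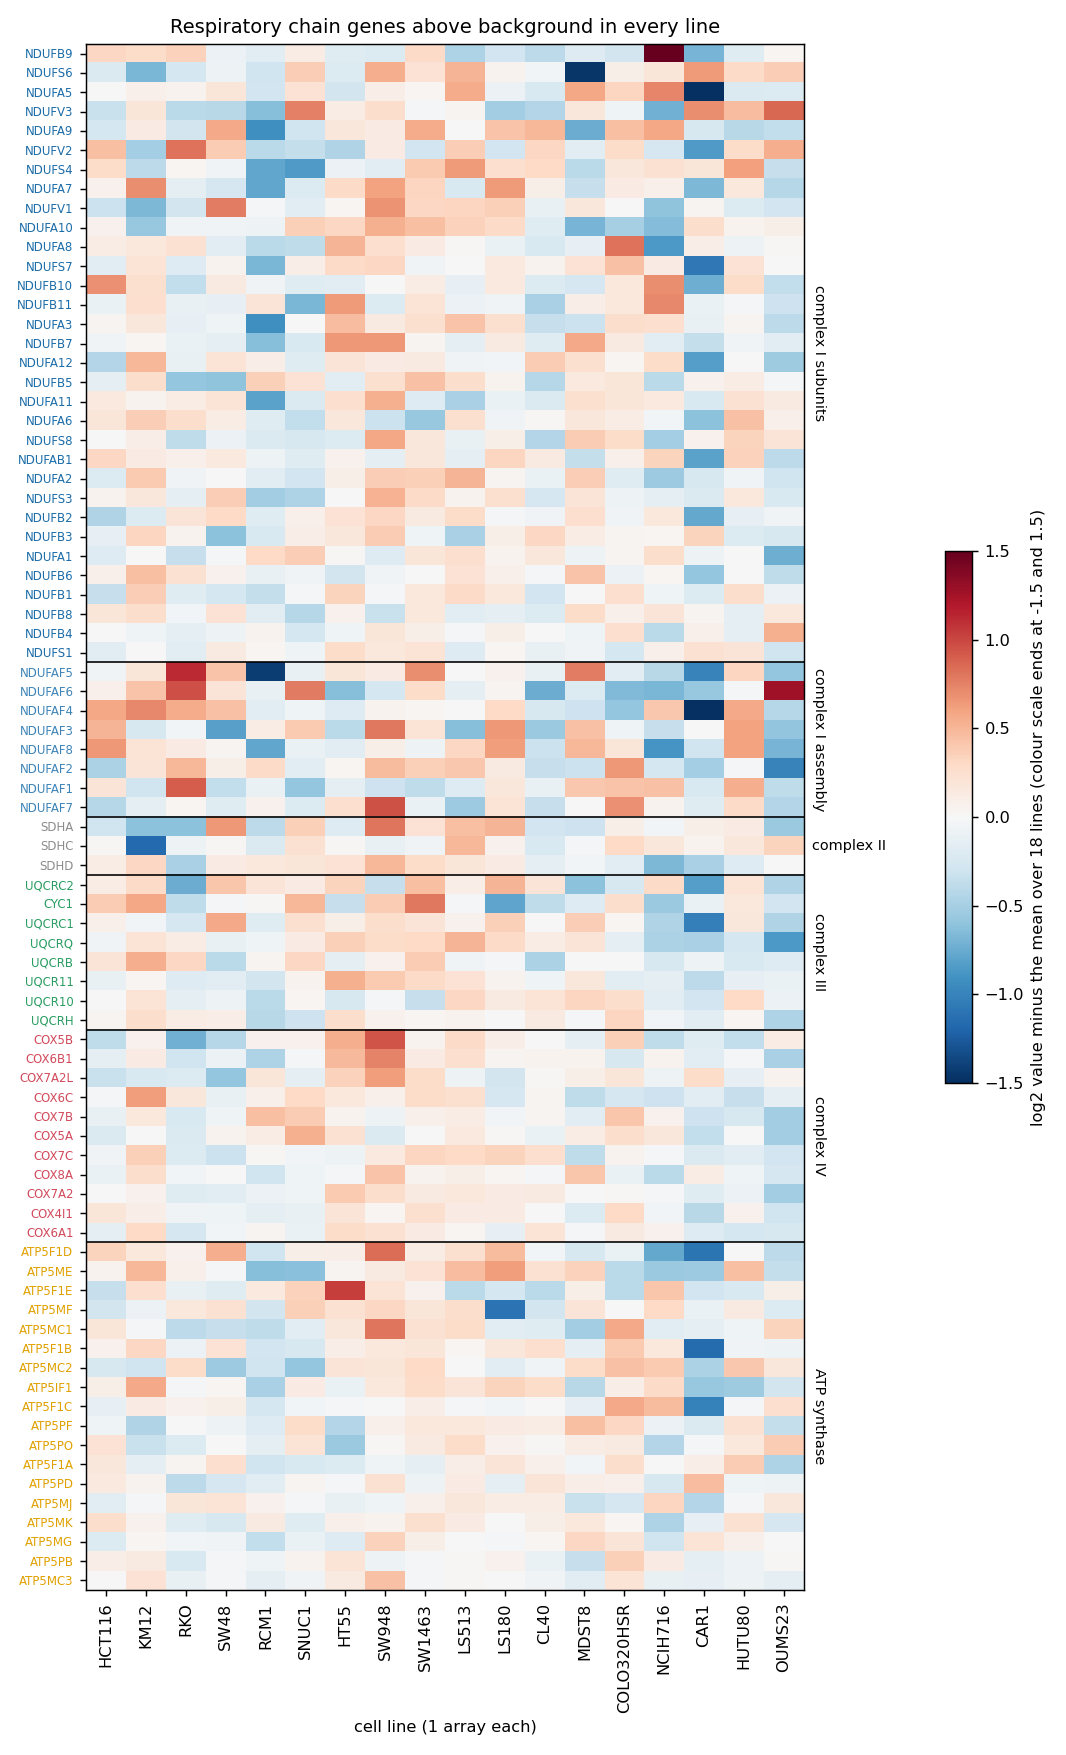
Deviation of each of 80 members (rows, grouped by complex and ordered by SD) from its mean over 18 lines (columns), in log2 units, red above and blue below. Most cells are pale, and the darkest mark single lines, such as NDUFB9 in NCIH716, NDUFA5 and NDUFAF4 in CAR1, and NDUFS6 in MDST8.

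Among the 32 complex I subunits the SD ran from 0.18 to 0.52 with a median of 0.33. The core subunit NDUFS1, which carries iron-sulphur clusters in the NADH-oxidising arm, was the steadiest, between 9.04 in OUMS23 and 9.61 in HT55. NDUFB4, an accessory subunit of the membrane arm, lay between 11.48 in NCIH716 and 12.42 in OUMS23. These differ by 1.49-fold and 1.92-fold between the extreme lines. The largest spread belonged to NDUFB9, an accessory subunit of the membrane arm, with its lowest value of 11.07 in CAR1, a median of 11.60 and its highest of 13.53 in NCIH716. NCIH716 stood 2.66-fold above the next line, RKO at 12.11, and the other 17 lines lay close together. NDUFA5, an accessory subunit of the peripheral arm, ran from 8.37 in CAR1 through a median of 9.95 to 10.64 in NCIH716. Here CAR1 was the line apart, 2.38-fold below RCM1 at 9.62. NDUFS6, a zinc-binding accessory subunit, was lowest in MDST8 (9.14), next in KM12 (9.91), with a median of 10.67 and its highest value in CAR1 (11.23). NDUFA9, an accessory subunit beside the ubiquinone site, ran from 9.57 in RCM1 to 11.08 in NCIH716 with a median of 10.56, and no line stood apart. NDUFV3, an accessory subunit of the NADH-oxidising arm, ran from 8.85 in NCIH716 to 10.43 in OUMS23, but its second probe set followed another order over the lines (r = -0.39), so this order rests on the choice of probe set.

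The 8 assembly factors of complex I, which build the enzyme and are not part of it, varied more than its subunits, with SDs from 0.38 to 0.61 and a median of 0.48. They are also dimmer, with means from 8.08 to 9.88, and 20 members with a mean under 10 had a median SD of 0.42 against 0.54 for the 7017 genes at that level. NDUFAF5, an enzyme that hydroxylates the core subunit NDUFS7, ran from 6.66 in RCM1 and 7.08 in CAR1 through a median of 8.11 to 9.20 in RKO, a 5.82-fold span. A second probe set above background gave the same extremes. NDUFAF6, needed early in assembly, was lowest in CL40 (7.77), with a median of 8.45, and highest in OUMS23 (9.78) and RKO (9.48). NDUFAF4, which works with NDUFAF3 on the arm that reduces ubiquinone, had a median of 9.40 and a highest value of 10.11 in KM12. Its value in CAR1 was 7.70, 2.14-fold below COLO320HSR at 8.80, and CAR1 was also the lowest line for its second probe set (4.17). NDUFAF3 ranged from 7.74 in SW48 to 9.34 in SW948, and NDUFAF8, the partner of NDUFAF5, had a median of 9.94 and reached 10.53 in HCT116. NDUFAF7, which methylates a core subunit, was highest in SW948 (9.33) for all 3 of its probe sets, with a median of 8.34. NDUFAF1, an assembly factor that acts with ECSIT, was lowest in SNUC1, had a median of 8.44 and reached 9.48 in RKO.

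Complex II was read from 3 genes. SDHC, a membrane anchor that binds haem and ubiquinone, had a median of 10.45, a highest value of 10.93 in LS513 and a lowest of 9.27 in KM12. KM12 lay 1.92-fold below the next line, CL40 at 10.21, while the other 17 lines spanned less than that gap, and KM12 was the lowest line for all 5 SDHC probe sets. SDHA, the flavoprotein that oxidises succinate, ran from 9.53 in KM12 and 9.54 in RKO through a median of 10.17 to 10.96 in SW948. SDHD, the other membrane anchor, ran from 8.60 in NCIH716 through a median of 9.39 to 9.77 in SW948. In KM12 SDHD was above its panel mean by 0.31 while SDHC was below by 1.16, so the 2 anchors did not move together in that line. Over the lines their correlation was r = -0.25 (rho = -0.27, n = 18), with a permutation p of 0.305 that became 0.355 after adjustment over the 7 pairs tested.

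Complex III spread from an SD of 0.22 to 0.43. Its 2 core proteins were both lowest in CAR1. UQCRC1 stood at 10.45 there, against 11.03 in the next line, NCIH716, a median of 11.55 and a highest value of 12.05 in SW48. UQCRC2 stood at 10.01, barely under RKO at 10.09, with a median of 10.99 and a highest value of 11.35 in LS180. CYC1, cytochrome c1, which hands electrons to cytochrome c, ran from 10.11 in LS180 through a median of 10.89 to 11.70 in SW1463. UQCRB and UQCRQ, small subunits near the ubiquinone sites, ran from 11.11 in CL40 to 12.13 in KM12 and from 10.70 in OUMS23 to 12.07 in LS513. The steadiest were UQCR10, between 11.17 and 11.89, and UQCRH, the hinge protein beside cytochrome c1, between 11.63 and 12.41. UQCR11 is also small, and its 2 probe sets followed different orders (r = -0.23).

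In complex IV the 11 members above background in all lines had a narrow spread. COX5B, a zinc-binding subunit facing the matrix, varied most, from 10.94 in RKO through a median of 11.71 to 12.59 in SW948, a 3.15-fold span. COX6B1, which faces cytochrome c, ran from 10.44 in OUMS23 to 11.66 in SW948, and COX7A2L, which joins complexes III and IV into supercomplexes, from 10.23 in SW48 to 11.44 in SW948. Thus SW948 held the highest value of all 3. COX6C ran from 11.69 in MDST8 to 12.70 in KM12. COX6A1 had the smallest span of all members above background, 1.47-fold. NDUFA4, now named COXFA4 and counted as a subunit of complex IV, falls outside the rule and ranged from 11.24 in HCT116 to 12.32 in NCIH716. Its relative COXFA4L2, known to be induced by low oxygen, was above background in NCIH716 alone, at 6.48.

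COX7A1 differed from this pattern. Its value was 7.51 in HUTU80, while the other 17 lines lay between 2.91 and 3.44, all below background. None of the 5 measured heart and skeletal muscle markers was above background in HUTU80, where CKM was the highest at 3.89, and the sum of the 5 log2 values was 16.5 there, against 15.5 to 19.9 over all lines. MYH7, MYL2 and CKM are also among the 43 genes that set the background level, so for them this outcome was largely fixed in advance. ACTA1 and MB are not among those genes, and stood at 3.23 and 3.31 in HUTU80. The fibroblast markers raised in that line are given above. COX7A1 is read by 1 probe set, so no second reading was at hand.

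The ATP synthase members had SDs from 0.16 to 0.46. ATP5F1B, the catalytic beta subunit, had a lowest value of 10.77 in CAR1, a median of 12.02 and a highest of 12.32 in COLO320HSR. ATP5F1C, the gamma subunit that turns inside the catalytic head, had 10.86 in CAR1, a median of 11.86 and 12.44 in COLO320HSR. CAR1 lay 1.83-fold and 1.68-fold below the next line, RCM1 in both cases, and was lowest for all 3 ATP5F1C probe sets that were above background in every line. ATP5F1A, the alpha subunit that alternates with beta in the head, did not share this, since its lowest value was 11.82 in OUMS23 and its span was 1.80-fold. ATP5F1D, the delta subunit of the rotor, ran from 8.88 in CAR1 and 9.20 in NCIH716 through a median of 10.05 to 10.81 in SW948. ATP5F1E, the epsilon subunit of the rotor, was highest in HT55 (13.09), 1.53-fold above NCIH716 at 12.47, with a median of 12.02, and HT55 was also highest for its dimmer probe set, which was above background in 3 lines. ATP5MF, a subunit of the membrane part, was lowest in LS180 (10.57), 1.77-fold below CL40 at 11.39, with a median of 11.82. ATP5MC1, ATP5MC2 and ATP5MC3 code for the same mature c subunit of the membrane ring. ATP5MC1 ranged from 9.15 in MDST8 to 10.48 in SW948, and ATP5MC3, one of the steadiest members, from 11.70 to 12.30. ATP5ME, a subunit of the membrane part, ranged from 10.47 in RCM1 to 11.75 in LS180, and ATP5PB, part of the stator, from 11.57 to 12.27.

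**Figure D3:**
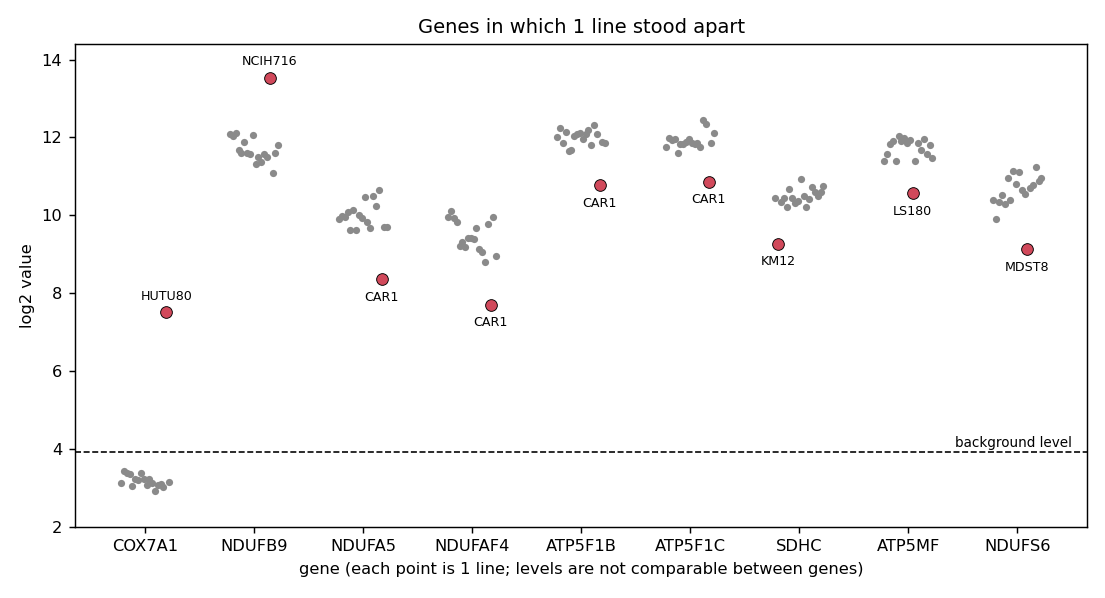
Log2 values of 9 genes in 18 lines (points), with the highest or the lowest line in red and named. The dashed line is the background level of 3.93. The marked line lay 1 log2 unit or more beyond every other only for COX7A1, NDUFB9, NDUFA5 and NDUFAF4. COX7A1 is above background in HUTU80 alone, NDUFB9 is high in NCIH716, and NDUFA5, NDUFAF4, ATP5F1B and ATP5F1C are low in CAR1.

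A line was counted as apart when it lay 1 log2 unit (2-fold) or more beyond every other line. Above all others this held for 2 of the 82 members, COX7A1 and NDUFB9, against 13.9% of genes. Below all others it held for 2, NDUFA5 and NDUFAF4, against 4.85% of genes. With a gap of 0.75 the count rose from 4 to 8, with a gap of 1.5 it fell to 1, and without CAR1 it was 2. For the high pair the genes beside them on the chromosome were examined, 10 positions to each side in RefSeq order. Around NDUFB9 on chromosome 8, 10 of 17 measured neighbours were 1 log2 unit or more above their panel mean in NCIH716, against 9.98% of all genes in that line, and 9 were at their highest there. They include the next 8 genes on 1 side, from MTSS1 (12.53) through SQLE (12.98), WASHC5 (12.31), NSMCE2 (12.60) and TRIB1 (12.66) to POU5F1B (7.58), and MYC, the ninth, was at 11.68. Around COX7A1 on chromosome 19, 6 of 16 measured neighbours were so raised in HUTU80, against 8.39% of genes, and 9 were at their highest there, among them ZNF529 (8.32), ZNF565 (7.51) and ZNF566 (6.76). Around NDUFA5 and NDUFAF4 1 of 9 and 1 of 15 neighbours lay 1 log2 unit or more below their means in CAR1, against 8.21% of all genes in that line.

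**Figure D4:**
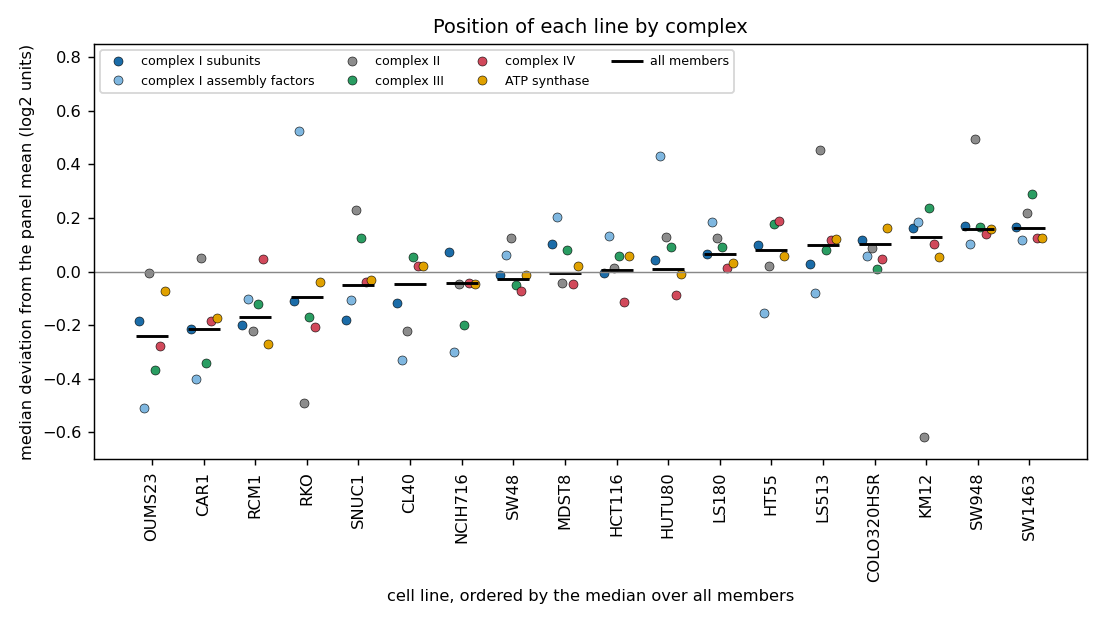
Median deviation from the panel mean (log2 units) of the members of each complex (coloured points) and of all 82 members (black bars), by line, ordered by the latter. The bars run from -0.24 in OUMS23 to 0.16 in SW1463, and the widest scatter is that of complex II (3 genes) and the assembly factors (8 genes).

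The position of a line was taken as the median, over members, of the deviation from the panel mean. Over all 82 members it ran from -0.24 in OUMS23 and -0.21 in CAR1 to 0.16 in SW948 and in SW1463. The medians of the 8215 genes above background in every line were 0.01, -0.09, -0.01 and -0.02 in the same 4 lines. Of the 82 members 58 lay below their means in OUMS23 and 62 in CAR1. The share of all genes on either side of their means was not summarised for any line. Complex I subunits ran from -0.21 in CAR1 to 0.17 in SW948, complex III from -0.37 in OUMS23 to 0.29 in SW1463, complex IV from -0.28 in OUMS23 to 0.19 in HT55 (-0.028 with the probe set of largest SD), and the ATP synthase from -0.27 in RCM1 to 0.16 in COLO320HSR. The complex IV position was taken over 13 members, among them COX7A1 and COX6B2, each above background in 1 line only. In OUMS23 the complex IV median was the deviation of COX7A1 itself, which was below background there. The assembly factors ran from -0.51 in OUMS23 to 0.52 in RKO and complex II from -0.62 in KM12 to 0.49 in SW948. The complexes did not share an order of lines. RKO was highest for the assembly factors, with 7 of 8 above their means, yet low for complex II (-0.49) and complex IV (-0.21). The median of the 8215 genes was also at its highest in RKO, at 0.12, against 0.52 for the assembly factors there. HUTU80, the next line for the assembly factors (0.43), had a median of 0.10 over those genes. KM12 was lowest for complex II and second highest for complex III (0.24). In OUMS23 all 8 complex III members lay below their means, as they did in CAR1.

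CAR1 and SW948 held an outsized number of the extremes. CAR1 was the lowest line for 20 of the 80 members above background throughout, against 10.9% of genes. The 20 take in 10 complex I subunits, 3 complex III subunits, 5 ATP synthase members, 1 assembly factor and 1 complex IV subunit. CAR1 lay 1 log2 unit or more below the panel mean for 8 of 82 members (ATP5F1B, ATP5F1C, ATP5F1D, NDUFA5, NDUFAF4, NDUFAF5, NDUFS7 and UQCRC1), a share near the 8.21% of genes that did so. SW948 was the highest line for 19 of the 80, against 3.7% of genes. In SW948 60 of 82 members lay above their means, where the median deviation of the 8215 genes was -0.01. The share of those genes above their means was not summarised. RCM1 was lowest for 11, against 4.53%, and KM12 highest for 10, against 4.52%. OUMS23 was lowest for 10, against 7.78%, and NCIH716 for 9, against 9.03%, which is close to the share over all genes.

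Members of 1 complex tracked each other weakly. Over the 18 lines the mean correlation between pairs was 0.14 over all 80 members, 0.12 within complex I, 0.11 within the ATP synthase, 0.26 within complex III and 0.35 within complex IV, the highest. The 28 pairs of assembly factors averaged 0.22 and the 3 pairs of complex II 0.15. Pairs from different complexes averaged 0.14, the same as all pairs, against 0.02 over all genes above background throughout and also over the bright ones. All pairs share the same 18 arrays, so these are descriptions. The closest pair was ATP5F1B and ATP5F1C (r = 0.85), the beta and gamma subunits, followed by ATP5F1B with NDUFS7, a core iron-sulphur subunit of complex I (0.83). Without CAR1 these were 0.58 and 0.57. COX6B1 and COX7A2 (0.82), and COX6B1 and UQCR11 (0.82), were 0.82 and 0.85 without it. The lowest value was that of ATP5MJ and ATP5PD (-0.71), both of the ATP synthase.

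Members also tracked the genes beside them on the chromosome, a comparison added after the values were seen. Each member was set against the median deviation of the 25 expressed genes on each side of it. The mean correlation over 18 lines was 0.52 for the 80 members and 0.41 for 8211 genes treated alike, and it was positive for 79 of 80 members, against 90.6% of those genes. With the medians of other chromosomes the members averaged 0.00. The highest values belonged to ATP5F1A on chromosome 18 (0.91), UQCRC1 on chromosome 3 (0.85) and ATP5F1C on chromosome 10 (0.84), and the 1 negative value to NDUFB1 on chromosome 14 (-0.09). Member pairs on the same chromosome correlated at 0.37 on average (145 pairs), and those on different chromosomes at 0.13 (3015 pairs). Such means were not taken over pairs of all genes, so this contrast is not shown to be particular to the members. Copy number was not measured, and its part was not tested.

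**Figure D5:**
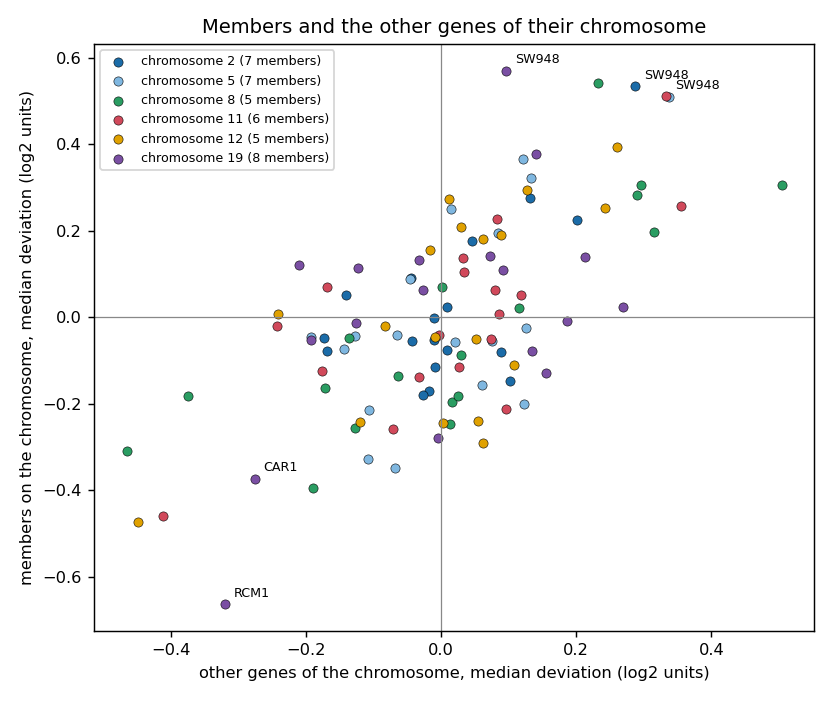
Median deviation (log2 units) of the members on a chromosome (vertical axis) against that of the other genes above background in every line on it (horizontal axis), 1 point per line for the 6 chromosomes with at least 5 members. The signs match in 75 of 108 points, with RCM1 lowest for chromosome 19 and SW948 high for chromosomes 2, 11 and 19.

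Most extremes of SW948, and part of those of RCM1 and CAR1, fell on a few chromosomes. Of the 19 members highest in SW948, 6 were among the 7 on chromosome 2, among them COX5B, COX7A2L, ATP5MC3 and NDUFAF7. A further 5 were among the 6 on chromosome 11, among them SDHD, NDUFS3, NDUFS8 and COX8A, and 4 among the 8 on chromosome 19. SW948 was highest for 3.7% of all genes above background in every line. The share among the other genes of these chromosomes was not summarised, so the counts cannot be read as particular to the members. In that line the members on chromosome 2 had a median deviation of 0.53 and the other 541 genes there 0.29, and on chromosome 11 the values were 0.51 and 0.33. On chromosome 19 they were 0.57 and 0.10, so there the members stood further from the other genes. In RCM1 all 8 members on chromosome 19 lay below their means (median -0.66, other genes there -0.32), and 4 of them, NDUFA3, NDUFA7, NDUFA11 and NDUFB7, were lowest in this line. RCM1 was lowest for 4.53% of all genes above background in every line, and the share on chromosome 19 was not summarised. CAR1 held the lowest value of all 4 members on chromosome 16, NDUFAB1, NDUFB10, UQCRC2 and COX4I1. Over all genes above background in every line its share of lowest values was 10.9%, and the other genes of chromosome 16 were not summarised. In CAR1 the 5 members on chromosome 12 had a median of -0.47 against -0.45 for the other genes there.

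No member was called between the media. Values for COX7B, a small subunit of complex IV, were 11.77 ± 0.19 (SD, n = 10) in DMEM/F-12 and 12.07 ± 0.23 (n = 8) in RPMI-1640, a log2 difference of -0.29 with a standard error of 0.10 and an adjusted p of 0.999 by limma. The ranges of the media overlapped. A second COX7B probe set, also above background in every line, followed another order over the lines (r = 0.17), so these values rest on the choice of probe set. Of 82 members 0 were called at an adjusted p under 0.05 over 15022 genes, and of all genes 0 were called, that is 0% in either direction. At an unadjusted p under 0.05 limma gave 4 of 82 members against 2.6% of genes. They were COX7B, COX5A (-0.25), NDUFA5 (-0.49) and NDUFA10 (0.38), the log2 difference being DMEM/F-12 minus RPMI-1640. In all, 39 of 82 members were higher in DMEM/F-12, and the median difference was -0.015 for members and -0.0028 for all genes. The median standard error was 0.16, which is the precision that 10 and 8 lines give.

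Of 17 gene pairs listed for testing, 7 could be tested. ATP5IF1, the inhibitor that binds the beta subunit and stops the enzyme running in reverse, ranged from 10.88 in CAR1 through a median of 11.54 to 12.01 in KM12. It correlated with ATP5F1B at r = 0.69 (rho = 0.71, n = 18), with permutation p-values of 0.0002 and 0.0015, or 0.0014 and 0.011 after adjustment over 7 pairs. Without CAR1 and HUTU80, the lines farthest from the ATP5IF1 median, r was 0.70, and within the media it was 0.73 (10 lines) and 0.70 (8 lines, exact p = 0.052). With the probe set of largest SD for each gene it was 0.38 (permutation adjusted p = 0.36). With ATP5F1A the inhibitor gave r = 0.04 (rho = 0.02, permutation p = 0.867 and 0.946, both unchanged by the adjustment).

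CYC1 and UQCRB, both of complex III and both on chromosome 8, correlated at r = 0.60 (rho = 0.65), with permutation p-values of 0.0085 and 0.0047, adjusted 0.030 and 0.016. Without LS180 and SW1463 r was 0.61. Within DMEM/F-12 it was 0.37 (10 lines, permutation p = 0.288) and within RPMI-1640 0.89 (8 lines, exact p = 0.0033), so the relation passed the threshold in 1 medium, and the difference between media was not tested. The adjusted p rose above 0.05 without KM12 (0.100), SNUC1 (0.063), SW1463 (0.101), CL40 (0.055) or NCIH716 (0.052), with r between 0.53 and 0.57, and with the mean of all probe sets r was 0.42 (adjusted p = 0.276, permutation). The other pairs did not pass by permutation. CYC1 and CYCS, which codes for cytochrome c, gave r = 0.35 (rho = 0.37, adjusted p = 0.295 and 0.279). ATP5F1B and ESRRA, a nuclear receptor known to act on respiratory genes, gave r = 0.30 (rho = 0.21, adjusted p = 0.320 and 0.465). COX5B and TFAM, which packs mitochondrial DNA, gave r = -0.34 (rho = -0.35, adjusted p = 0.295 and 0.279). Within DMEM/F-12 and RPMI-1640 r was 0.67 (unadjusted permutation p = 0.013, 10 lines) and -0.24 for ATP5F1B with ESRRA, 0.62 and -0.10 for CYC1 with CYCS, and -0.57 and -0.06 for COX5B with TFAM. Without CAR1 and NCIH716 the value for ATP5F1B and ESRRA was 0.096, and leaving out 1 line at a time it ran from 0.0031 to 0.43. The differences between media were not tested. The remaining pairs held a gene above background in fewer than 6 lines, such as COX4I2 or PPARGC1A, or SDHB, which was not analysed here.

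Other genes of the pathway were read from lists. The 13 subunits encoded in mitochondrial DNA were not analysed here. The 9 remaining nuclear subunits and electron carriers were all above background somewhere, 8 in every line, with a median SD of 0.49. They include AIFM2, which reduces ubiquinone at the plasma membrane, from 2.76 in NCIH716 through a median of 8.27 to 10.19 in SW48. ETFDH, which feeds electrons from fatty acid oxidation, ran from 4.82 in MDST8 to 7.35 in HUTU80, and DHODH, of pyrimidine synthesis, from 5.43 in CAR1 to 7.18 in HCT116. Of 44 further assembly factors 43 were above background in every line. A range of 2 or more was found in 15 of the 44, against 54.4% of genes above background in at least 1 line. Among the 15 were UQCC1, ECSIT and COX19, the last above background in only 11 lines. ECSIT, which helps assemble complex I, was lowest in CAR1 (5.18). Of 16 regulators of mitochondrial biogenesis 13 were above background in every line. PPARGC1A, a coactivator of the programme, was above it in 5 lines and reached 6.17 in COLO320HSR, ESRRG in 2 and reached 7.98 in HUTU80, and MYC ranged from 9.42 in MDST8 to 13.09 in COLO320HSR. None of the genes in these lists was called between the media.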

How the data were processed

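The deposited table holds log2 intensities of 54613 probe sets on 18 arrays. Per the submitters' processing notes, the authors used RMA and the affy package, with versions not given in the sources used here. The values ranged from 2.31 to 13.71 and were used as they stand. RMA moves all arrays to 1 distribution, so a shift shared by most genes cannot be seen, and it compresses very bright and very dim values. Precision is limited by how many arrays there are.

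The platform annotation gave 1 gene for 40914 probe sets, more than 1 for 864 and no gene for 12835. Of the first kind, 40858 took their current symbol from RefSeq (GRCh38.p14) by Entrez ID. Where a gene had several, the 1 with the highest mean over lines was read. The background level came from 43 measured of 50 listed genes of other tissues, and the 99th percentile of their values was 6.63.

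The members, lists and pairs were chosen with earlier results of these data known. Media were compared with limma 3.58.1 (lmFit, eBayes with trend) in R 4.3.3, over genes above background in at least 1 line, with Benjamini-Hochberg adjustment. Pairs were tested, two-sided, with 100000 permutations, exactly below 10 lines. Other summaries used Python 3.11.15, numpy 2.4.6, pandas 2.3.3 and scipy 1.17.1. The scripts were tested on simulated data. The genes to be described in full were the 5 with the largest and the 2 with the smallest SD in each complex, all members with a line apart, the isoform pairs, the SDH genes and the 3 of largest SD per further list; others, such as ATP5F1B, ATP5F1C and the genes beside NDUFB9 and COX7A1, were picked once values had been seen.

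The settings varied were the probe set rule (the mean over a gene's probe sets, or the most variable), array scaling by the median or by quantiles, background percentiles of 90 and 99, other ranges and gaps, means in place of medians, Spearman's rho, limma without trend, robust or with array weights, no filter on dim genes, and each line left out in turn. For the chromosomal neighbours, windows of 10 and 50 genes and the whole chromosome were added after the data were seen, as were the longer motifs.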

Additional observations from a re-analysis of the deposited data

Results flagged for a closer look

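Within each medium, the lowest and highest line of each of the 82 members above background, and of each complex's position, were set against the gap expected of an outlier (Dixon's criterion), which chance meets in about 1 of 20 groups. Of 176 such groups 16 met it, all of them single members. That is 16 of 164 member groups (9.76%), against 15.3% of the same groups over all 15022 genes; the difference was not tested. Most are described above, namely NDUFB9 in NCIH716 (13.53), NDUFA5 in CAR1 (8.37), NDUFAF4 in CAR1 (7.70), SDHC in KM12 (9.27), COX7A1 in HUTU80 (7.51), ATP5F1B in CAR1 (10.77), ATP5F1C in CAR1 (10.86), ATP5F1E in HT55 (13.09) and ATP5MF in LS180 (10.57). CAR1 was also low for NDUFS7 (8.01, next line of its medium 8.90), NDUFB2 (10.97, next 11.61) and ATP5MJ (11.59, next 11.92). NDUFB4 in OUMS23 reached 12.42, with the next line of its medium at 12.06. NDUFAF7 in SW948 reached 9.33, with the next at 8.67. ATP5MC3 in SW948 reached 12.30, and COX8A in SW948 reached 12.39 with the next at 12.08. MDST8, of the other medium, had COX8A at the same level, 12.39.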

How the results depend on the processing

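For the values that answer a comparison, 861 alternatives kept the side of the threshold or stayed within the spread, 8 moved beyond it and 7 lost the call, all given here or as ranges. The count of 7 members with a range of 2 log2 units or more became 19 with the probe set of largest SD, which favours variable and dim probe sets by construction, 58 at a range of 1, 1 at a range of 3, and 0 between the second highest and second lowest lines; leaving out a line gave 5 to 7. The 4 lines apart became 8 at a gap of 0.75 and 1 at a gap of 1.5, and 2 to 5 on leaving out a line, with 2 without CAR1. The position of complex IV in HT55 was -0.028 with the probe set of largest SD, against 0.19, so its sign changed, and the cause was not tested. The correlation of CYC1 with UQCRB was 0.42 with the mean of all probe sets and 0.53 to 0.71 on leaving out a line; the probe set of largest SD for UQCRB was above background in fewer than 6 lines and gave no value. That of ATP5IF1 with ATP5F1B was 0.38 with the probe set of largest SD and 0.68 to 0.74 on leaving out a line. Members called between the media stayed at 0 under all settings run, including no filter on dim genes. The mean correlation with chromosomal neighbours stayed between 0.42 and 0.54. For single genes and other positions, 42 values moved beyond the spread between lines or by over 1.5 times and 4872 did not. No paired analysis was possible because the lines carry no shared replicate numbers in the labels; the numbers used follow accession order. With 1 array for each line, technical error and difference between lines cannot be told apart, and values near 3.93 have no order.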
